A study of Mus musculus with 4 samples.

Results

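Basal lamina genes were followed across 4 RNA libraries of cultured mouse dorsal root ganglia. They were 10 genes chosen by symbol: the collagen IV chains Col4a1 and Col4a2, the laminin chains Lama2, Lama4, Lamb1, Lamb2 and Lamc1, the linkers Nid1 and Hspg2, and the collagen-binding protein Sparc. All 10 were found, each on 1 of the 23282 gene rows, and each had at least 281 reads in every library. Ganglia came from C57BL/6 mice at embryonic day 13 and were grown as explants on coverslips coated with Matrigel, itself a basement membrane extract. All cultures were moved from growth to myelination medium at day in vitro (DIV) 8. The ES cultures were stimulated electrically at 20 Hz and 50 mV/mm for 1 h at 10 DIV, and the control cultures were not. The 4 groups were ES harvested at 11 DIV, control at 11 DIV, ES at 19 DIV and control at 19 DIV. Each group was 1 library, made from RNA of 3 pooled explants. No difference below therefore has a replicate check, and an effect of stimulation or day cannot be told apart from what set these pools or libraries apart otherwise. The libraries hold 3' tags, which come from transcript ends. Whether each deposited count is a single read is not stated in the sources used here. Levels were compared between libraries for the same gene.

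The basal lamina is the sheet of matrix that surrounds each Schwann cell and its axon in peripheral nerve. Laminins, trimers of an alpha, a beta and a gamma chain, polymerise on the cell surface and signal through integrins and dystroglycan, and collagen IV adds a covalent network that nidogen and perlecan tie to the laminin layer. In cultures with neurons, Schwann cells assemble a basal lamina before they myelinate. Schwann cells and fibroblasts both make its components.

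The libraries held 5782834 to 7830950 reads, and the 10 genes together took 1.26% of them in ES and 0.84% in control at 11 DIV, and 1.51% in ES and 1.45% in control at 19 DIV. Reads of Rn45s, from which ribosomal RNA is cut, made up 2.65% to 3.08% of the ES libraries, against 5.18% of control at 11 DIV and 2.82% of control at 19 DIV. All 8 fibroblast markers had reads in each library. Of the 7 sensory neuron markers 5 to 7 had reads in a library, and of the 9 Schwann cell markers 6 to 7. The Schwann cell marker Erbb3 had at most 2 reads in any library. Among 7 endothelial markers, 4 (Cldn5, Pecam1, Tek and Tie1) were at 0 in all 4 libraries. The counts were clumped: the scatter between libraries exceeded independent counting error by a spread factor of 209 to 260 (median 234). Levels are given as TMM-scaled CPM, that is, reads per 1e+06 of the effective library size. Folds are ratios of CPM, and their 95% intervals come from counts divided by the spread factor of the pair. The spread-adjusted rule asked for at least 2-fold, at least 50 reads in the higher library and a 99% interval on the divided counts that excludes equality. The size rule asked for the same fold and reads with a 95% interval on the undivided counts. The share of genes that each rule called is given below as background, over all genes with 50 reads in either library and over the 1357 genes averaging 1000 reads or more, a range that holds every member except Lamb2 (mean 486 reads).

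Col4a1 and Col4a2 encode the alpha1 and alpha2 chains that assemble into the common form of collagen IV. Col4a1 (protein-coding, GRCm38 chr8:11198423-11312826, minus strand) had 1148 CPM in ES and 436 in control at 11 DIV, and 1204 CPM in ES and 893 in control at 19 DIV. Control at 11 DIV was the low library, and the other 3 lay closer together. Col4a2 (chr8:11312805-11449287, plus strand) had 590 CPM in ES and 562 in control at 11 DIV, and 562 CPM in ES and 493 in control at 19 DIV. Its highest and lowest levels were 1.2-fold apart, the narrowest range of the 10 genes, against 2.76-fold for Col4a1. The genes lie head to head, and their annotated starts overlap by 22 bases. Their RefSeq promoter windows (GRCm38.p6, 250 bases before to 50 after each start) are shown because the pair is transcribed from a shared start region while the counts differed between libraries. The windows are chr8:11312777-11313076 on the minus strand and chr8:11312555-11312854 on the plus strand, each 5' to 3' on its own strand, and capitals mark the 78 bases that both contain.
Col4a1: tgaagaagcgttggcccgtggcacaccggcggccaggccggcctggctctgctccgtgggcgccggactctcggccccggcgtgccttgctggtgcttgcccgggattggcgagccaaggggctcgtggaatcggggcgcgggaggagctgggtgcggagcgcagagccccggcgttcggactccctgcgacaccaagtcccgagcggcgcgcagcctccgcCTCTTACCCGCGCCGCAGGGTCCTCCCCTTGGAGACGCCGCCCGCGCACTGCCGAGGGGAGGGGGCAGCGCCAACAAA
Col4a2: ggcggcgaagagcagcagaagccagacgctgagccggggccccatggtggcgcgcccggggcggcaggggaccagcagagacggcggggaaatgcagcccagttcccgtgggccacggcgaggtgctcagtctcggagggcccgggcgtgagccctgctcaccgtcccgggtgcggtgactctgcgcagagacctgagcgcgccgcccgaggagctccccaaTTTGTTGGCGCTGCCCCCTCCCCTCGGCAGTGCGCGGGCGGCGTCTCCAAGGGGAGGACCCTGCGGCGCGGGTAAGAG
The motif GGGCGG (or CCGCCC on the other strand) stood once within the shared bases and at 2 further places in the Col4a2 window, and 35.7% of 32851 RefSeq promoter windows of this length held it. CCAAT (or ATTGG) stood once in each window, at different positions that did not lie wholly in the shared bases, and 37.4% of all windows held it. TATAAA (or TTTATA) was in neither window, nor in those of the other 6 members with an entry, and 13.6% of all windows held it. No match overlapped another in the Col4a1 and Col4a2 windows, and a match is only a description of these letters.

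Among the laminin chains, Lamc1, Lamb1 and Lama2 ranged most. Lamc1 (chr1:153218922-153332786) encodes the gamma1 chain, which most laminins share and which Schwann cells of the mouse need to sort and myelinate axons. It had 582 CPM in ES and 277 in control at 11 DIV, and 996 CPM in ES and 504 in control at 19 DIV, so the ES library was the higher one at both days. Lamb1 (chr12:31265234-31329644), the beta1 chain, had 815 CPM in ES and 311 in control at 11 DIV, and 1237 CPM in ES and 994 in control at 19 DIV. Lama2 (chr10:26980036-27619758) encodes the alpha2 chain, typical of the Schwann cell basal lamina, whose loss in humans and mice causes muscular dystrophy with neuropathy. It had 224 CPM in ES and 76 in control at 11 DIV, and 247 CPM in ES and 405 in control at 19 DIV. Its lowest level rests on 440 reads, and the 95% interval of that level ran from 8.31 to 284 CPM. Lama4 (chr10:38965515-39110188), the alpha4 chain of vessels and developing nerve, had 264 CPM in ES and 281 in control at 11 DIV, and 399 CPM in ES and 401 in control at 19 DIV. Lamb2 (chr9:108479736-108490530), the beta2 chain, had 77.8 CPM in ES and 48.5 in control at 11 DIV, and 87.8 CPM in ES and 72.5 in control at 19 DIV. With 281 to 701 reads, its level could not be separated at this depth in any of the 4 comparisons made below.

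Nid1 (chr13:13437551-13512269) encodes nidogen-1, which bridges laminin and collagen IV. It had 891 CPM in ES and 861 in control at 11 DIV, and 1022 CPM in ES and 665 in control at 19 DIV. Hspg2 (chr4:137468769-137570630) encodes perlecan, a large heparan sulfate proteoglycan of the basal lamina. It had 777 CPM in ES and 553 in control at 11 DIV, and 1640 CPM in ES and 1168 in control at 19 DIV, so both libraries of the later day were above both of the earlier. The same order held for Lamb1, Lama2, Lama4 and Sparc. Sparc (chr11:55394500-55423183), a secreted glycoprotein that binds collagens, had 6932 CPM in ES and 5582 in control at 11 DIV, and 7391 CPM in ES and 8544 in control at 19 DIV. Control at 11 DIV held the lowest level of 7 of the 10 genes, and ES at 19 DIV the highest of 6. How often these libraries were lowest or highest over all genes is not given here, so these counts have no background. Without Sparc, the 9 other genes summed to 5370 CPM in ES and 3406 in control at 11 DIV, and to 7394 CPM in ES and 5595 in control at 19 DIV.

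**Figure D1:**
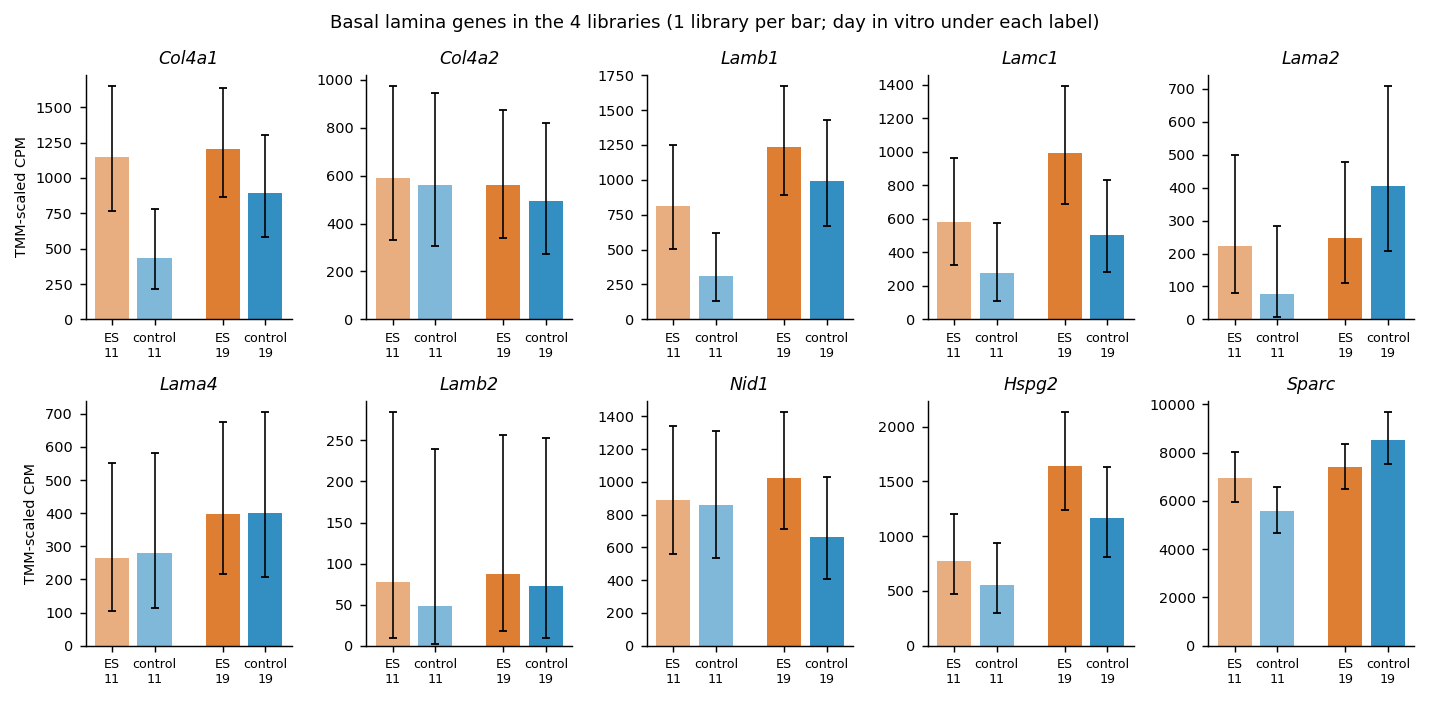
TMM-scaled CPM of the 10 basal lamina genes (vertical axes, each from 0) in the ES and control libraries at 11 and 19 DIV, 1 library per bar, with 95% intervals on counts divided by the median spread factor of 234. Control at 11 DIV is the lowest bar for Col4a1, Lamb1, Lamc1, Lama2, Lamb2, Hspg2 and Sparc, while the 4 bars of Col4a2 lie between 493 and 590 CPM.

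The first comparison asked how ES differed from control 1 day after stimulation. Col4a1 was 2.64-fold higher in ES at 11 DIV (95% interval 1.33 to 5.60), with 6803 reads counted in the ES library against 2523 in its control. It was the 1 member past the spread-adjusted rule, which called 0.737% of the genes averaging 1000 reads or more higher and 2.28% in either direction. Over all 9834 genes with 50 reads these shares were 0.102% and 0.315%. The laminin chains did not pass that rule. Lama2 was at 2.95 times control (0.554 to 27.4), Lamb1 at 2.62 (1.16 to 6.55) and Lamc1 at 2.10 (0.844 to 5.74). Hspg2 was at 1.41 (0.700 to 2.89), Sparc at 1.24 (1.00 to 1.54), Col4a2 at 1.05 (0.495 to 2.24), Nid1 at 1.03 (0.568 to 1.89), Lamb2 at 1.60 (0.111 to 42.6) and Lama4 at 0.94 times control (0.298 to 2.95). By the size rule 4 members (Col4a1, Lama2, Lamb1 and Lamc1) were higher and 0 lower, where that rule called 28.9% of all genes higher and 58.6% in either direction, and 9.73% and 20.8% of those averaging 1000 reads or more. Over the 10 genes the median log2 difference was 0.58 (range -0.09 to 1.56), against 0.00 over the 11665 genes averaging 10 reads or more and -0.07 over those averaging 1000 or more.
A spread factor from genes of 2000 to 20000 mean reads was larger in this pair, 419, and with it no member passed, the interval of Col4a1 being 0.984 to 8.20. Scaled to total reads alone, every fold of this pair was 0.13 higher on the log2 scale, Lama4 stood at 1.03 times control, and Lamb1 joined Col4a1 past the spread-adjusted rule. The shares of all genes called with the larger factor or with this scaling are not given here.

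At 19 DIV, 9 days after stimulation, no member passed either rule between ES and control. Lamc1 had the highest ratio, at 1.98 times control (1.04 to 3.93) and just under the 2-fold limit, on counts of 7950 in the ES library and 3471 in its control. Nid1 was at 1.54 (0.857 to 2.83), Hspg2 at 1.40 (0.900 to 2.22), Col4a1 at 1.35 (0.805 to 2.30) and Lamb1 at 1.24 times control (0.757 to 2.07). Lamb2 was at 1.21 (0.141 to 13.4) and Col4a2 at 1.14 (0.545 to 2.44). Lama4 was at 0.995 (0.421 to 2.39), Sparc at 0.865 (0.723 to 1.04) and Lama2 at 0.609 times control (0.219 to 1.61). The spread-adjusted rule called 0.259% of all genes (0.13% higher) and 1.92% of those averaging 1000 reads or more (0.958% higher), and the size rule called 60.6% (29.4% higher) and 18.9% (10.4% higher). The median log2 difference was 0.29 (range -0.71 to 0.98), against 0.00 over all genes. In 7 of the 10 genes ES was above control at both days, in 1 (Lama4) below at both, and in 2 (Lama2 and Sparc) the direction differed, the value of Lama4 at 11 DIV being the one that turned with scaling to total reads. The share of all genes with each of these directions is not given here. The fold at 19 DIV over the fold at 11 DIV was 0.511 for Col4a1 (0.225 to 1.16), 0.474 for Lamb1 (0.190 to 1.18) and 0.942 for Lamc1 (0.329 to 2.70), with intervals that included equality.

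Control cultures at 19 DIV were set against control cultures at 11 DIV, the library that also served in the first comparison. Each of the 4 libraries stands in more than 1 comparison, so the comparisons are not independent of each other. Lamb1 was 3.20-fold higher at 19 DIV (1.42 to 8.21), from 6855 reads at 19 DIV and 1801 at 11 DIV, and was the 1 member past the spread-adjusted rule, which called 1.18% of the genes averaging 1000 reads or more higher and 4.42% in either direction. Over all genes these shares were 0.16% and 0.608%. Lama2 was at 5.33 times the level at 11 DIV (1.15 to 53.4), with 2790 reads at 19 DIV and 440 at 11 DIV. Hspg2 was at 2.11 (1.10 to 4.27), Col4a1 at 2.05 (0.979 to 4.61), Lamc1 at 1.82 (0.694 to 5.30) and Sparc at 1.53 (1.24 to 1.90). Lamb2 was at 1.5 (0.0948 to 51.3), Lama4 at 1.43 (0.517 to 4.28), Col4a2 at 0.877 (0.392 to 1.97) and Nid1 at 0.772 (0.397 to 1.49). The size rule called 4 members higher (Col4a1, Lama2, Lamb1 and Hspg2) and 0 lower, against 30.9% of all genes higher and 60.8% in either direction, and 11.7% and 25.6% of those averaging 1000 reads or more. The median log2 difference was 0.74 (range -0.37 to 2.41), against 0.00 over all genes. The spread factor from genes of 2000 to 20000 mean reads was 588 here and left no member past the rule, with 0.865 to 17.3 for Lamb1 and 1.09 to 2.17 for Sparc. Sparc, the most deeply counted member at 32335 to 59021 reads, was under 2-fold in all 4 comparisons. Its counts lie above both ranges of reads that gave the spread factors, so its intervals in each comparison may be too narrow.

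Stimulated cultures at 19 DIV were set against stimulated cultures at 11 DIV. Hspg2 was 2.11-fold higher at 19 DIV (1.21 to 3.86), from 13093 reads at 19 DIV and 4605 at 11 DIV, and was the 1 member past the spread-adjusted rule and past the size rule. The spread-adjusted rule called 1.18% of the genes averaging 1000 reads or more higher and 2.87% in either direction, and the size rule 12.2% and 22.5%. Over all genes the spread-adjusted rule called 0.162% higher and 0.415% in either direction, and the size rule 30.9% and 61.4%. Lamc1 was at 1.71 (0.872 to 3.55), Lamb1 at 1.52 (0.850 to 2.80), Lama4 at 1.51 (0.528 to 4.87), Nid1 at 1.15 (0.636 to 2.11) and Lamb2 at 1.13 (0.111 to 16.7). Lama2 was at 1.10 (0.313 to 4.27), Sparc at 1.07 (0.867 to 1.31), Col4a1 at 1.05 (0.619 to 1.80) and Col4a2 at 0.953 times the level at 11 DIV (0.440 to 2.11). The median log2 difference was 0.19 (range -0.07 to 1.08), against 0.00 over all genes. With the spread factor of 369 from genes of 2000 to 20000 mean reads, the 95% interval of Hspg2 was 1.08 to 4.40 and its 99% interval no longer excluded equality.

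**Figure D2:**
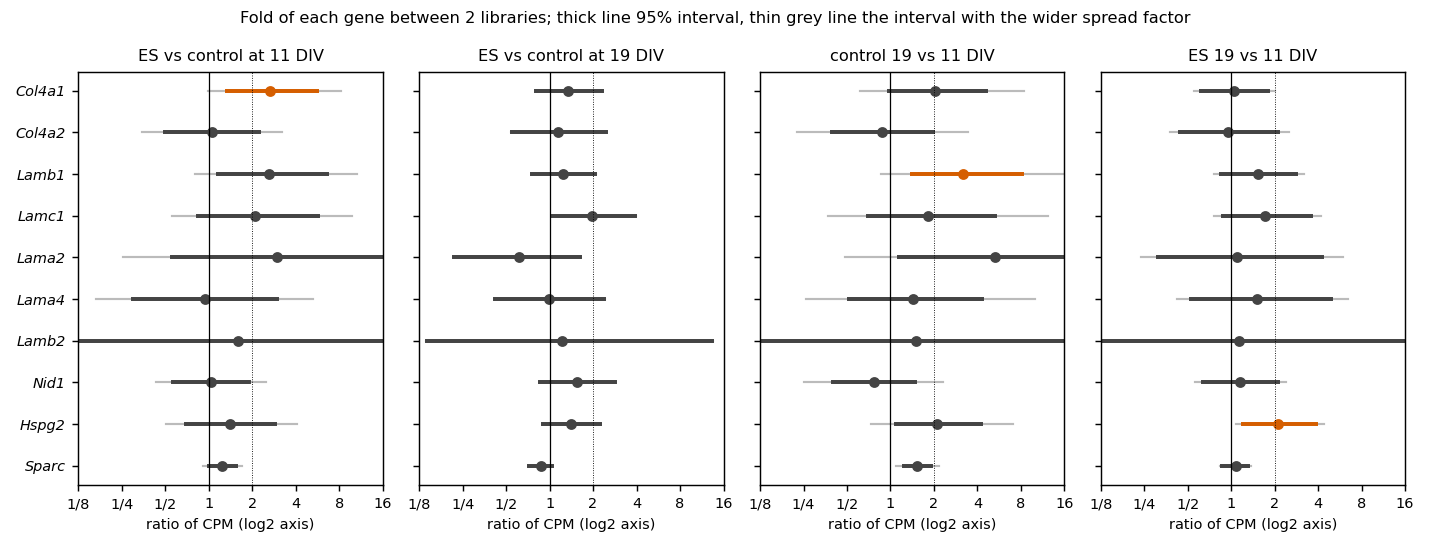
Ratio of CPM (log2 axis) of each basal lamina gene in the 4 comparisons of 2 libraries, with 95% intervals from the spread factor of the pair (thick lines) and from genes of 2000 to 20000 mean reads (thin grey lines), drawn only between 1/8 and 16. The genes past the spread-adjusted rule, in orange, are Col4a1 in ES against control at 11 DIV, Lamb1 in control at 19 against 11 DIV and Hspg2 in ES at 19 against 11 DIV.

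The 4 libraries allow 1 fit with a residual degree of freedom, in which stimulation and day are additive and the effect of stimulation is taken as equal at both days. By edgeR's quasi-likelihood test, 9 of 10 members had a stimulation coefficient above 0, led by Lamc1 (log2 difference 1.03), Col4a1 (0.91) and Lamb1 (0.85). For day, 8 of 10 were above 0, led by Lama2 (1.27), Lamb1 (1.14), Hspg2 (1.07) and Lamc1 (0.82). The median coefficient of the members was 0.45 for stimulation and 0.55 for day, against -0.07 over all genes tested for either effect. The share of all genes with a coefficient above 0 is not given here. The adjusted p of every member was 1 for both effects (Benjamini-Hochberg over 10050 genes). The test called 0 genes for stimulation and 0 for day, a background of 0%, and at an unadjusted p under 0.05 it held 109 genes for stimulation (1.08%, with 1 member, Lamc1) and 202 for day (2.01%, with 2 members, Lamb1 and Hspg2). DESeq2's Wald test called 503 of 9660 genes for stimulation (5.21%), among them Lamc1 with an adjusted p of 0.00286, while Col4a1 was at 0.0769. It called 832 of 10050 genes for day (8.28%), among them Hspg2 (0.000154), Lamc1 (0.0193) and Lamb1 (0.0235). Limma with voom called 0 genes for either effect.

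The ratio of Col4a1 to Col4a2 reads was taken inside each library, where scaling plays no part. The pair is shown because Col4a1 ranged more than Col4a2, and changes of the ratio restate the folds given above. It was 1.95 in ES (95% interval 1.01 to 3.91) and 0.775 in control (0.316 to 1.85) at 11 DIV, and 2.14 in ES (1.22 to 3.90) and 1.81 in control (0.920 to 3.71) at 19 DIV. Intervals inside a library used the median spread factor of 234, which came from scatter of the same gene between libraries. That factor does not measure the error between 2 different genes, so these intervals do not test a ratio against 1. Control at 11 DIV was the 1 library with fewer Col4a1 than Col4a2 reads. The ratio in ES over that in control at 11 DIV was 2.51, and its interval of 0.967 to 6.53 reached equality. The genes' 3' ends, from which tags come, lie at opposite outer ends of the pair, away from the overlapping starts. Use of strand in counting is not given in the sources used here. For the alternative alpha chains, the ratio of Lama2 to Lama4 reads was 0.847 in ES (0.225 to 3.05) and 0.270 in control (0.0248 to 1.47) at 11 DIV. At 19 DIV it was 0.618 in ES (0.228 to 1.57) and 1.01 in control (0.412 to 2.47), and the 4 intervals overlapped. The ratio of Sparc to Col4a1 reads was 6.04 in ES and 12.8 in control at 11 DIV, and 6.14 in ES and 9.57 in control at 19 DIV. In ES it was 0.471 times control at 11 DIV (0.236 to 0.942, or 0.176 to 1.26 with the larger spread factor) and 0.642 times control at 19 DIV (0.381 to 1.08).

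**Figure D3:**
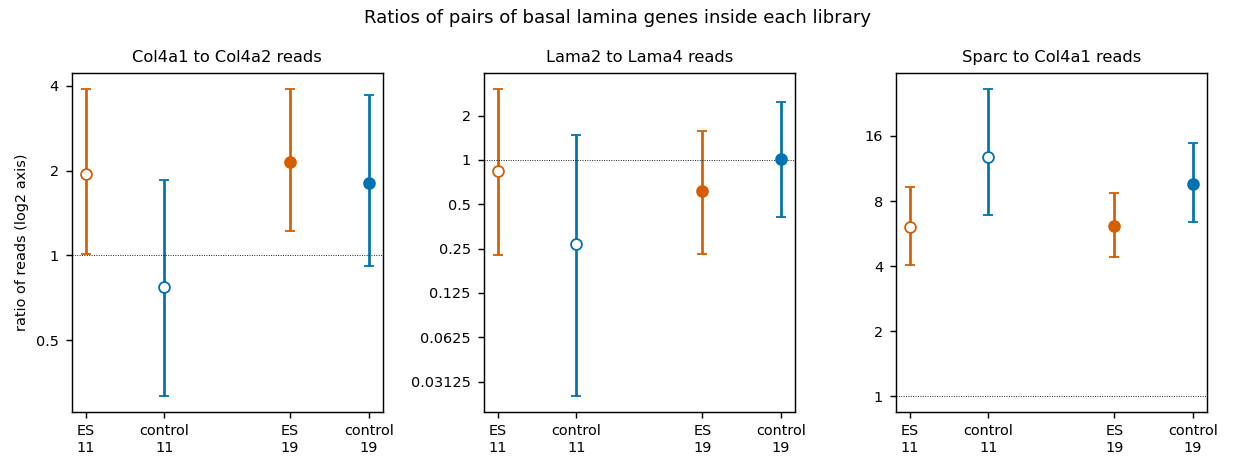
Ratio of the reads of 2 basal lamina genes inside each library (log2 axes) at 11 DIV (open points) and 19 DIV (filled points), ES in orange and control in blue, with 95% intervals on counts divided by 234. The Col4a1 to Col4a2 ratio is 0.775 in control at 11 DIV and 1.81 to 2.14 in the other 3 libraries.

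Most other basement membrane genes were counted more sparsely, though Col18a1 averaged 3802 reads, more than the member Col4a2 at 3659. Among further laminin chains, Lamb3, Lama3 and Lamc3 had no read in any library and Lama5 had at most 8. Lama1, the alpha1 chain of early embryonic basement membranes, was counted 255 times in ES and 75 times in control at 11 DIV, and 401 times in ES and 0 times in control at 19 DIV. Of 4 further collagen IV chains, Col4a5 and Col4a6 had no read, Col4a3 had 50 reads in ES at 11 DIV only, and Col4a4 had 68 in ES and 321 in control at 19 DIV and none at 11 DIV. Counts of 0 here are within the reach of the clumping and do not show that a chain is absent. Col18a1, the collagen XVIII chain, had 438 CPM in ES and 317 in control at 11 DIV, and 884 CPM in ES and 539 in control at 19 DIV. Fbln2, fibulin-2, had 107 CPM in ES and 32.6 in control at 11 DIV, and 222 CPM in ES and 211 in control at 19 DIV. Over the 12 of 17 such components averaging 10 reads or more, the median log2 difference of ES and control was 0.00 at 11 DIV and 0.15 at 19 DIV. None of them passed the spread-adjusted rule in any of the 4 comparisons.

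Of the enzymes and chaperones that fold and export collagen and laminin, 15 were measured. Their median log2 difference between ES and control was 0.75 at 11 DIV (11 above 0, 4 below) and 0.37 at 19 DIV (10 above, 5 below). Between 19 and 11 DIV it was 0.17 in ES (8 above, 7 below) and 0.66 in control (12 above, 3 below), and the median over all genes was 0.00 in each comparison. The size rule called 6 of them higher and 2 lower in ES than in control at 11 DIV, and 0 higher and 1 lower at 19 DIV. Between 19 and 11 DIV it called 3 higher and 2 lower in ES, and 5 higher and 1 lower in control, against the 58.6% to 61.4% of all genes given above. Serpinh1, a collagen-specific chaperone, was at 1.61 times control at 11 DIV (0.821 to 3.27) and 1.44 at 19 DIV (0.864 to 2.46). Pdia3, a protein disulfide isomerase of the endoplasmic reticulum, was at 1.68 (0.788 to 3.75) and 1.64 times control (0.963 to 2.86) at these days, and none of the 15 passed the spread-adjusted rule. The 11 measured laminin and collagen IV receptors had a median of -0.59 in ES against control at 11 DIV (5 above 0, 6 below) and 0.58 at 19 DIV (9 above, 2 below). Itgb1, the beta1 integrin subunit, had 525 CPM in ES and 1046 in control at 11 DIV, and 1148 CPM in ES and 682 in control at 19 DIV. It was at 0.502 times control at 11 DIV (0.249 to 0.968) and at 1.68 at 19 DIV (0.957 to 3.05). Dag1, dystroglycan, the other main laminin receptor of Schwann cells, was at 1.47 (0.859 to 2.57) and 0.909 times control (0.592 to 1.40) at these days. The 7 measured genes of the dystroglycan complex had medians of 0.44 at 11 DIV and -0.62 at 19 DIV, with Utrn, utrophin, at 1.22 (0.299 to 5.33) and 0.776 (0.252 to 2.34) and Dmd, dystrophin, at 6.25 (0.608 to 658) and 0.581 (0.0751 to 3.62). Of the SPARC family, Fstl1 was at 1.23 (0.603 to 2.57) and 0.952 times control (0.522 to 1.74) and Sparcl1 at 1.51 (0.597 to 4.05) and 0.933 (0.360 to 2.44). No receptor, dystroglycan complex or SPARC family gene of these lists passed the spread-adjusted rule in any comparison.

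Markers of the cells that make the basal lamina also differed between these libraries. In bulk samples fewer cells of a type and less RNA per cell cannot be told apart. The 8 fibroblast markers summed to 7380 CPM in ES and 5196 in control at 11 DIV, and to 13734 CPM in ES and 9789 in control at 19 DIV. Their median log2 difference of ES and control was 0.52 at 11 DIV and 0.65 at 19 DIV, and of day 1.01 in ES and 0.87 in control. Of these, Col1a2, a chain of collagen I, was 2.34-fold higher in control at 19 DIV than at 11 DIV (1.70 to 3.28), and Col1a1, the other chain, 2.09-fold higher in ES at 19 DIV than at 11 DIV (1.45 to 3.06). The Schwann cell markers averaging 10 reads or more, 7 of 9, had a median log2 difference of ES and control of 0.20 at 11 DIV and -0.21 at 19 DIV, and of day of 0.21 in ES and 0.62 in control. By day, 5 of the 7 were above 0 and 1 below in ES, and 6 above and 1 below in control. The 1 below was S100b, with 1118 reads in ES and 719 in control at 11 DIV, and 0 in ES and 49 in control at 19 DIV. Cdh19 and Erbb3 of this list were at 0 in both libraries of 11 DIV. At 19 DIV Cdh19 had 0 reads in ES and 106 in control, and Erbb3 had 2 in ES and 0 in control. Fabp7 had at most 7 reads in any library. The 7 neuronal markers summed to 3392 CPM in ES and 2407 in control at 11 DIV, and to 1217 CPM in ES and 3258 in control at 19 DIV. At 19 DIV the axonal intermediate filament gene Prph was at 0.376 times control (0.171 to 0.777), Stmn2 at 0.332 (0.134 to 0.748) and Tubb3, neuronal beta-tubulin, at 0.316 (0.113 to 0.779), all past the spread-adjusted rule. Markers of vessel wall cells had low counts. The 7 endothelial markers summed to 34.4 to 48.3 CPM in ES and 25.2 to 43.0 in control. The 6 pericyte or mural markers summed to 99.6 to 153 CPM in ES and 30.7 to 66.6 in control. The 5 perineurial markers summed to 114 CPM in ES and 133 in control at 11 DIV, and to 276 CPM in ES and 133 in control at 19 DIV. The 7 macrophage markers summed to 69.0 CPM in ES and 102 in control at 11 DIV, and to 84.9 CPM in ES and 56.3 in control at 19 DIV. The part of these cell markers in the differences of the basal lamina genes was not tested.

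**Figure D4:**
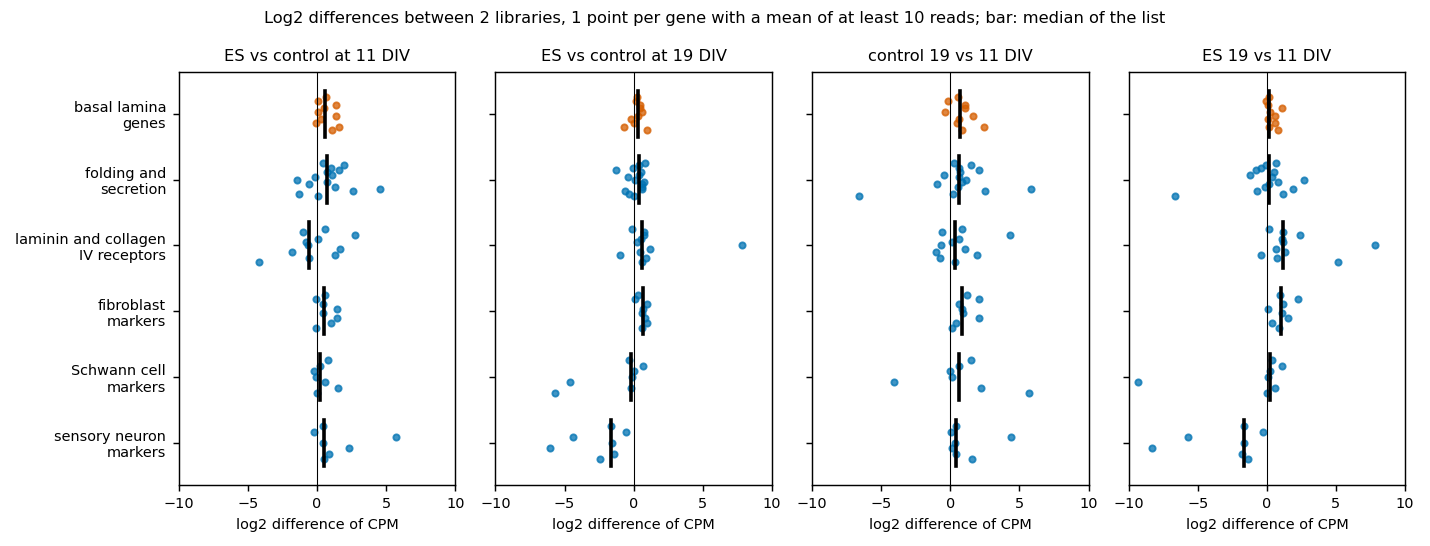
Log2 difference of CPM (horizontal axes, prior count 2) in the 4 comparisons of 2 libraries, 1 point per gene averaging 10 reads or more and a bar at the median of each list. The medians of the basal lamina genes, in orange, are 0.58, 0.29, 0.74 and 0.19 from the left panel to the right, and those of the fibroblast markers 0.52, 0.65, 0.87 and 1.01.

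The genes whose pattern over the 4 libraries lay nearest to that of Col4a1, by Euclidean distance of centred log2 CPM among 1356 other genes averaging 1000 reads or more, were Papss1 (0.20), Col5a1 (0.20) and Hmgcs1 (0.23). Col5a1, a chain of the fibril-forming collagen V, had 669 CPM in ES and 250 in control at 11 DIV, and 707 CPM in ES and 442 in control at 19 DIV. Nearest to Col4a2 were Serf2 (0.08), Myeov2 (0.10) and Lars2 (0.13), all nearly level across the libraries. Nearest to Sparc were 2900097C17Rik (0.10), Fstl1 (0.10) and Hnrnpul2 (0.12). Among the members the closest pairs were Col4a2 with Nid1 (0.31), Lama4 with Sparc (0.37) and Lamb2 with Sparc (0.43), and Col4a1 lay nearest to Lamc1 (0.53). These distances rest on 4 points that share libraries and describe them only.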

How the data were processed

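RNA was measured in 4 libraries of mouse ganglion explants, 1 per group, grouped by sample title. The authors deposited whole-number read counts, not normalized, in 1 table of 23282 gene rows for each library. Per the labels' protocols, a QuantSeq kit turned 500 ng of total RNA into each library. Bowtie2, bedtools and the build mm10 appear in the submitters' processing notes, without versions. How duplicates and strand were treated, and whether reads or covered bases were counted, is not stated there. PCR duplicates and clumping make reads dependent, so counting intervals understate the error.

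Counts were scaled with TMM (edgeR 4.0.16, R 4.3.3) over the 4 libraries. Folds have Clopper-Pearson intervals. For the spread-adjusted ones both counts were first divided by a factor for extra scatter: over genes averaging 500 to 3000 reads, the squared difference of the 2 libraries was set against counting error, and its median taken relative to that of a chi-square variable. Intervals of a ratio of ratios use the same factor on the log scale. Log2 differences of lists used a prior count of 2. The additive fit used glmQLFit and filterByExpr, with DESeq2 1.42.0 and limma 3.58.1 as alternatives. The remaining steps used scipy 1.17.1, numpy 2.4.6 and pandas 2.3.3 in Python 3.11.15, with figures by matplotlib 3.10.9. Gene positions are from GENCODE M21 (GRCm38, the assembly of mm10), and promoters from RefSeq, where 8 of 10 members had an entry. Other scalings, fold limits, read minimums, prior counts, spread factors, interval levels and thinning were tried.

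The text names all 10 members. Of the other lists it names the 2 most abundant genes and any past the spread-adjusted rule, plus the 3 nearest genes by pattern for Col4a1, Col4a2 and Sparc. A few genes this covers, and the summed level of the Schwann cell markers, are not reported here. A few list genes with no or few reads in a library, Lama5 and S100b among them, were named after their values were seen. Members, lists, rules and tests were chosen with earlier results of these data known.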

Additional observations from a re-analysis of the deposited data

Results flagged for a closer look

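In 2 of the 10 genes the ES library was above control at 11 DIV and below it at 19 DIV. They are shown here because of that difference in direction. Sparc was at 1.24 times control at 11 DIV (1.00 to 1.54, or 0.912 to 1.70 with the larger spread factor) and 0.865 at 19 DIV (0.723 to 1.04). The fold at 19 DIV was 0.697 times that at 11 DIV, with an interval of 0.530 to 0.916 (0.493 to 0.985 with the larger spread factors). The counts of Sparc lie above both ranges of reads that gave these factors, so its intervals may be too narrow. Lama2 was at 2.95 times control at 11 DIV and 0.609 at 19 DIV, a ratio of folds of 0.207 with an interval of 0.0344 to 1.24. With 1 library per group these differences between days were not tested across replicates.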

How the results depend on the processing

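At the spread-adjusted rule the count of members called was 1 in ES against control at 11 DIV and became 2 with total counts or a 95% interval (Col4a1 and Lamb1) and 0 with a 3-fold limit or the spread factor from genes of 2000 to 20000 reads. In control at 19 against 11 DIV it was 1 and became 2 with total counts (Lamb1 and Hspg2) or a 1.5-fold limit (Lamb1 and Sparc), 3 with a 95% interval and 0 with the other spread factor. In ES at 19 against 11 DIV it was 1 and became 0 with a 3-fold limit or the other spread factor. At the size rule a 3-fold limit gave 0 members in ES against control at 11 DIV, 2 in control at 19 against 11 DIV and 0 in ES at 19 against 11 DIV. A 1.5-fold limit gave 5 in ES against control at 11 DIV and 3 at 19 DIV (2 higher and 1, Lama2, lower). Between 19 and 11 DIV it gave 6 in control and 4 in ES. The share of all genes that either rule called at these changed settings is not given here, so these counts have no background. DESeq2 called 1 member for stimulation (Lamc1) and 3 for day (Lamb1, Lamc1 and Hspg2), where edgeR called 0. The cause was not tested. The stimulation coefficient of Lama2 was -0.02 by limma with voom and that of Lama4 was 0.01 without TMM, both on the other side of 0. The median log2 differences of the members kept their sign under all 7 alternatives run for each comparison, and the median over all genes with a read was 0.00 in each. These alternatives could hardly turn a sign: other scalings moved every gene by only -0.01 to 0.13 log2, and prior counts matter little at these read numbers. The kept sign is therefore no check on the differences between libraries. No paired analysis was possible because each group is 1 library. Without 1 of the 4 libraries the additive fit has no residual degree of freedom and reduces to the comparisons of 2 libraries. Depth limits Lamb2 and Lama2 most, since their counts are few spread factors.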
